A study of Mus musculus with 15 samples.

Results

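Ribosome biogenesis genes and Myc were examined in mouse lung cancer cells after knockdown of Siva, the product of the p53 target gene Siva1. The 43 genes were taken from a list of nucleolar and ribosome assembly factors, with Myc added, wherever the gene name of a non-control probe on the array equalled the symbol. All 43 were tested, of 22908 genes tested in all. Each was read by its brightest probe, and all 64 of their probes were well above background on 15 of 15 arrays. LSZ2 and LSZ4, mouse non-small cell lung cancer lines, carried a short hairpin against Siva (shSiva1 or shSiva2, 8 arrays) or against GFP or LacZ, which mouse cells lack (7 arrays). The hairpins came in pLKO.1 (shGFP), LL37 (shLacZ) or pLKO TRC2.0 (shSiva). Selection was 3 days in puromycin at 2 ug/ul, except for the shLacZ cells, and 200 ng of RNA was taken 2 days after plating. There were 2 arrays for each hairpin in each line, apart from a single one for shGFP in LSZ2. The control arrays shared slide 1 and the Siva hairpin arrays slide 2, so slide and vector cannot be told apart from the Siva hairpins. Nothing in the labels says that replicates were separate cultures, so p-values measure the spread between these samples.

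Ribosomes are built in the nucleolus. RNA polymerase I transcribes the long ribosomal RNA precursor, small nucleolar ribonucleoproteins (snoRNPs) guide its methylation and pseudouridylation, and a succession of assembly factors cuts and folds it into the small and large subunits. Myc, a basic helix-loop-helix transcription factor, binds the E-box CACGTG with its partner Max and is known for raising the transcription of many of these genes in growing tumour cells.

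Values are log2 signals less the 75th percentile of the array, so they are levels relative to the rest of the same array. That percentile, called brightness here, ran from 425 to 1029 intensity units. It was lowest on the LSZ4 shGFP arrays (425 and 455), and the LSZ4 replicates differed from each other (893 and 578 with shLacZ, 956 and 582 with shSiva1, 626 and 497 with shSiva2). Siva1 fell by 2.52 (SE 0.26, adjusted p = 3.12e-05 in limma), to 17.5% of the control level. Of 6 epithelial markers, Cdh1, Krt8, Krt18, Krt19 and Cldn7 were well above background on 15 of 15 arrays and Epcam on 14. Of 7 fibroblast and mesenchyme markers, Vim and Col1a2 were on 15 arrays and 3 on none. Median values in LSZ4 were 9.33 for Krt8, 8.39 for Vim, -2.45 for Cldn7 and -3.99 for Epcam. On 15 arrays too were 2 blood and immune and 2 endothelial markers. Of 7 lung markers Sftpd was on 15 arrays, Sftpb on 12, Scgb1a1 on 8, and Nkx2-1, Sftpc, Sftpa1 and Foxj1 on none. These are whole-culture values, in which fewer cells of a kind and less RNA per cell cannot be told apart.

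**Figure D1:**
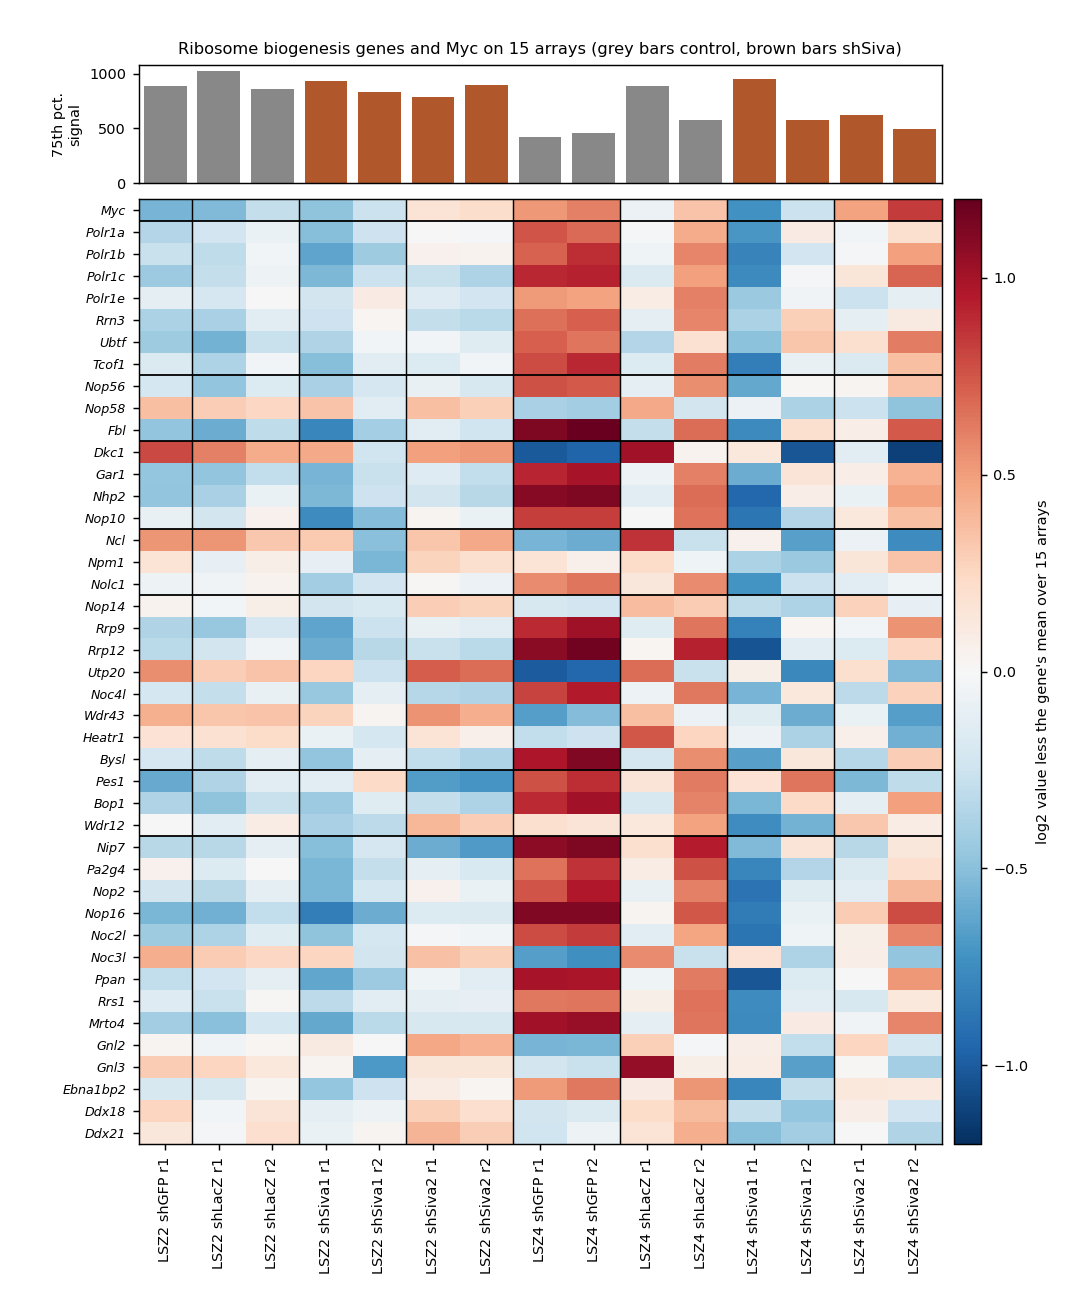
Each row is 1 of the 43 genes, ordered by role with lines between roles, and each column 1 of the 15 arrays. Colour gives the log2 value less the mean of that gene over all arrays, and the bars above give array brightness (75th percentile signal, intensity units). Most genes are highest on the dim LSZ4 shGFP arrays (425 and 455), where Dkc1, Ncl and Utp20 are low.

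Myc did not pass the test between Siva hairpins and control in limma, over both lines or in either. In LSZ2 it read 2.77 with shGFP, 2.79 and 3.04 with shLacZ, 2.84 and 3.06 with shSiva1, and 3.49 and 3.54 with shSiva2. In LSZ4 it read 3.84 and 3.93 with shGFP, 3.26 and 3.66 with shLacZ, 2.60 and 3.07 with shSiva1, and 3.80 and 4.16 with shSiva2. The shSiva2 arrays lay above every other LSZ2 array, whereas in LSZ4 the shSiva1 arrays were the lowest and the shSiva2 arrays overlapped the shGFP arrays. The pooled difference between shSiva and control was 0.03 on the log2 scale (SE 0.23, adjusted p = 0.954), with a 95% interval from -0.45 to 0.51. It was 0.37 in LSZ2 and -0.27 in LSZ4, neither past the test (adjusted p = 0.816 and 0.606). The 2 hairpins differed from each other, as described further on.

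Among the 43 genes, Nip7 and Pa2g4 fell with a Siva hairpin over both lines. Nip7, a factor of pre-rRNA processing and large subunit assembly, fell by 0.64 (SE 0.19, adjusted p = 0.0422), to 64.2% of control. Pa2g4, a nucleolar protein that binds pre-ribosomal particles, fell by 0.58 (SE 0.18, adjusted p = 0.0483), to 66.8%. The other Nip7 probe read 0.10 in this comparison (adjusted p = 0.865), the opposite sign, and the other Pa2g4 probes -0.42 and -0.25, none past the test. When the probes of a gene were averaged neither gene passed (Nip7 -0.27, adjusted p = 0.456, and Pa2g4 -0.42, adjusted p = 0.185). None of the 43 rose. Among all genes 5.67% fell and 4.32% rose in this comparison, so 2 of 43 is close to the background. The fit found 39 of 43 changes below 0, as were 64.1% of all changes, and the median was -0.31 against -0.11 over all genes. The count was 0 without any 1 of 9 arrays, named here by line, hairpin and replicate: LSZ4 shGFP 1 or 2, LSZ2 shLacZ 2, LSZ4 shLacZ 2, LSZ2 shSiva1 1, LSZ4 shSiva1 1 or 2, LSZ2 shSiva2 2 and LSZ4 shSiva2 1. It was 1 without LSZ2 shGFP 1 or LSZ2 shSiva1 2 and 4 without LSZ4 shLacZ 1. Without both LSZ4 shGFP arrays it was 0 (2.53% of all genes fell), Nip7 read -0.45 (adjusted p = 0.175) and Pa2g4 -0.45 (adjusted p = 0.183).

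Nip7 values in LSZ2 were 4.99 with shGFP, 4.99 and 5.21 with shLacZ, 4.81 and 5.12 with shSiva1, and 4.73 and 4.64 with shSiva2. In LSZ4 they were 6.40 and 6.44, 5.51 and 6.27, 4.79 and 5.47, and 4.99 and 5.46 in the same order of hairpins. All 4 LSZ4 shSiva arrays lay below all 4 LSZ4 control arrays, while in LSZ2 a shSiva1 array lay within the control range. Pa2g4 values in LSZ2 were 4.81 with shGFP, 4.58 and 4.75 with shLacZ, 4.20 and 4.47 with shSiva1, and 4.63 and 4.57 with shSiva2. In LSZ4 they were 5.40 and 5.62, 4.84 and 5.52, 3.97 and 4.40, and 4.58 and 4.96. Pa2g4 overlapped between arms in both lines, through the shSiva2 arrays.

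The promoters of Nip7 and Pa2g4, the genes called over both lines, are shown with that of Pes1, whose brightest probe, though not the other, separated the 2 Siva hairpins. The windows run from 250 bases before the RefSeq transcript start to 50 after it, 5′ to 3′ on the strand of the gene, on GRCm38.p6. Nip7 is at chr8:107056627-107056926 on the plus strand, Pa2g4 at chr10:128565885-128566184 on the minus strand and Pes1 at chr11:3963725-3964024 on the plus strand. Capitals mark CACGTG, which is its own reverse complement, so that 1 search covers both strands.
Nip7: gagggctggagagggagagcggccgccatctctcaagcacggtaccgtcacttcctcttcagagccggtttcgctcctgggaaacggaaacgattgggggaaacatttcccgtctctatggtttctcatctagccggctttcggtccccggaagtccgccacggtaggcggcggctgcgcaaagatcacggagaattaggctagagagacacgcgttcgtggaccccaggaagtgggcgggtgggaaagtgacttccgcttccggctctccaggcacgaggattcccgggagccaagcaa
Pa2g4: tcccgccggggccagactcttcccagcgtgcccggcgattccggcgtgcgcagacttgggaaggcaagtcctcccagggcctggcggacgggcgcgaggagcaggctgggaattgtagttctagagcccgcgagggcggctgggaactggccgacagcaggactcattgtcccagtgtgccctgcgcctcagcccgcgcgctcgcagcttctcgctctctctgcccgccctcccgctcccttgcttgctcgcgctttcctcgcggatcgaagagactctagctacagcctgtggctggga
Pes1: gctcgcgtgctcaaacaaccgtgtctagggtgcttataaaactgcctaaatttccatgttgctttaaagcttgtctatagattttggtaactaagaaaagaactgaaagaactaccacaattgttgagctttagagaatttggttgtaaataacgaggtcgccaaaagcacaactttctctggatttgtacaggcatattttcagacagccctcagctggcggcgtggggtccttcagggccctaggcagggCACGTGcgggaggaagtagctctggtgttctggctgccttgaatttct
The Pes1 window holds 1 CACGTG, starting 2 bases after the first base of the transcript, and the Nip7 and Pa2g4 windows hold none. Of the 43 genes, 35 had a window, and 5 of them (14.3%) held the motif, against 8.09% of 27025 genes with a window. These were Nop2, Pes1, Rrn3 with 2 copies, Utp20 and Wdr43. Wdr12 and Nop10, which the Siva hairpins also separated, had windows without the motif. A match describes the letters only, and its relation to the direction of change was not tested.

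Within LSZ2, none of the 43 genes passed the test in limma, and 0 had an unadjusted p under 0.05 (10.2% of all genes). In this comparison 0.939% of all genes were called. The changes ran from -0.32 to 0.37 with a median of -0.02, against -0.04 over all genes, and 25 of 43 were below 0 (54.8% of all genes), or 16 of 43 when arrays were scaled to their medians. Gnl2, a nucleolar GTPase, read 3.47, 3.40 and 3.46 on the LSZ2 control arrays and 3.55, 3.45, 3.90 and 3.86 on the shSiva arrays, a change of 0.25 (SE 0.23, adjusted p = 0.833), with 1 shSiva1 array inside the control range. Heatr1, a scaffold of the small subunit processome, was the only one whose LSZ2 groups did not overlap. It read 4.91, 4.92 and 4.96 on the control arrays and 4.66, 4.52, 4.90 and 4.79 on the shSiva arrays, a change of -0.21 (adjusted p = 0.892). Among all genes 11.7% did not overlap in that direction.

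Within LSZ4, 5 of the 43 genes fell and none rose, where 2.13% of all genes fell and 2.39% rose. They were Nip7, Nolc1, Pa2g4, Polr1e and Rrp12. The groups did not overlap for Nip7, Nolc1 and Polr1e, against 3.78% of all genes in that direction. The median over the 43 was -0.57 against -0.18 over all genes, and 40 of 43 changes were below 0 (64.9% of all genes). When the probes of a gene were averaged, Nip7 (-0.56, adjusted p = 0.247), Pa2g4 (-0.68, adjusted p = 0.139) and Nolc1 (-0.62, adjusted p = 0.259) no longer passed. Utp20 (0.13), Noc3l (0.13) and Gnl2 (0.17) had the only changes above 0, none past the test. The number of changes below 0 was 40 with median scaling and with normexp background correction and 35 with quantile scaling.

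All 7 genes of RNA polymerase I and its factors had changes below 0 in LSZ4, from -0.72 to -0.14, and Polr1e, a subunit of the enzyme, passed the test. Polr1e read 2.73 and 2.70 with shGFP, 2.31 and 2.83 with shLacZ, 1.77 and 2.18 with shSiva1, and 1.96 and 2.10 with shSiva2. Every LSZ4 shSiva array was below every LSZ4 control array, and the gene fell by 0.64 (SE 0.16, adjusted p = 0.0401). Polr1a and Polr1b, the largest subunits, read -0.57 and -0.67, Polr1c, a subunit shared with polymerase III, -0.52, and Tcof1, which encodes the nucleolar protein treacle, -0.72. Rrn3, the initiation factor that joins the enzyme to the promoter, read -0.49, and Ubtf, which binds ribosomal DNA, -0.14. In LSZ2 the 7 ran from -0.09 to 0.28.

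Of the 7 snoRNP proteins none passed in LSZ4. The box C/D proteins, which guide methylation, read -0.54 (Nop56), -0.15 (Nop58) and -0.61 (Fbl, the methyltransferase). The box H/ACA proteins Gar1, Nhp2 and Nop10 read -0.60, -0.80 and -0.76, and Dkc1, the pseudouridine synthase of the same particle, -0.31 (SE 0.41). Dkc1 was the most variable of them between replicates, at 1.85 and 0.88 with shLacZ, 0.97 and -0.18 with shSiva1, and 0.72 and -0.28 with shSiva2.

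Of the nucleolar phosphoproteins, Nolc1, which shuttles between nucleolus and cytoplasm and binds snoRNPs, fell in LSZ4. It read 6.18 and 6.25 with shGFP, 5.75 and 6.18 with shLacZ, 4.90 and 5.35 with shSiva1, and 5.47 and 5.56 with shSiva2. The groups did not overlap, and Nolc1 fell by 0.77 (SE 0.18, adjusted p = 0.0285). Npm1 (nucleophosmin) read -0.19 and Ncl (nucleolin) -0.22, both short of the test.

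Among small subunit factors Rrp12, needed for pre-ribosome export and maturation, fell in LSZ4. Its values were 2.50 and 2.58 with shGFP, 1.45 and 2.34 with shLacZ, 0.38 and 1.28 with shSiva1, and 1.25 and 1.67 with shSiva2. The lower shLacZ array lay within the shSiva2 range. Rrp12 fell by 1.07 (SE 0.28, adjusted p = 0.0428), to 47.7% of control. Rrp9, a U3 snoRNP protein, read -0.67, Noc4l -0.70 and Bysl (bystin) -0.75. Heatr1 and Utp20, large scaffold proteins, read -0.35 and 0.13, and Nop14 and Wdr43, also of the small subunit processome, -0.19 and -0.15.

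Of the large subunit factors Nip7 fell by 0.98 (SE 0.23, adjusted p = 0.0263) and Pa2g4 by 0.87 (SE 0.22, adjusted p = 0.0399) in LSZ4. The PeBoW complex, which processes the large subunit precursor, read -0.62 (Pes1), -0.56 (Bop1) and -0.46 (Wdr12). Rrs1, a large subunit assembly factor, read 4.16 and 4.16 with shGFP, 3.59 and 4.17 with shLacZ, 2.76 and 3.39 with shSiva1, and 3.33 and 3.64 with shSiva2. One shSiva2 array lay above the lower shLacZ array, and the change of -0.74 missed the test (adjusted p = 0.0519). The methyltransferase gene Nop2 read -0.75, and Ppan, Nop16, Mrto4, Ebna1bp2 and Noc2l lay between -0.80 and -0.56. The GTPases Gnl2 and Gnl3 (nucleostemin) read 0.17 and -0.40, and the helicases Ddx18 and Ddx21 -0.28 and -0.40.

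**Figure D2:**
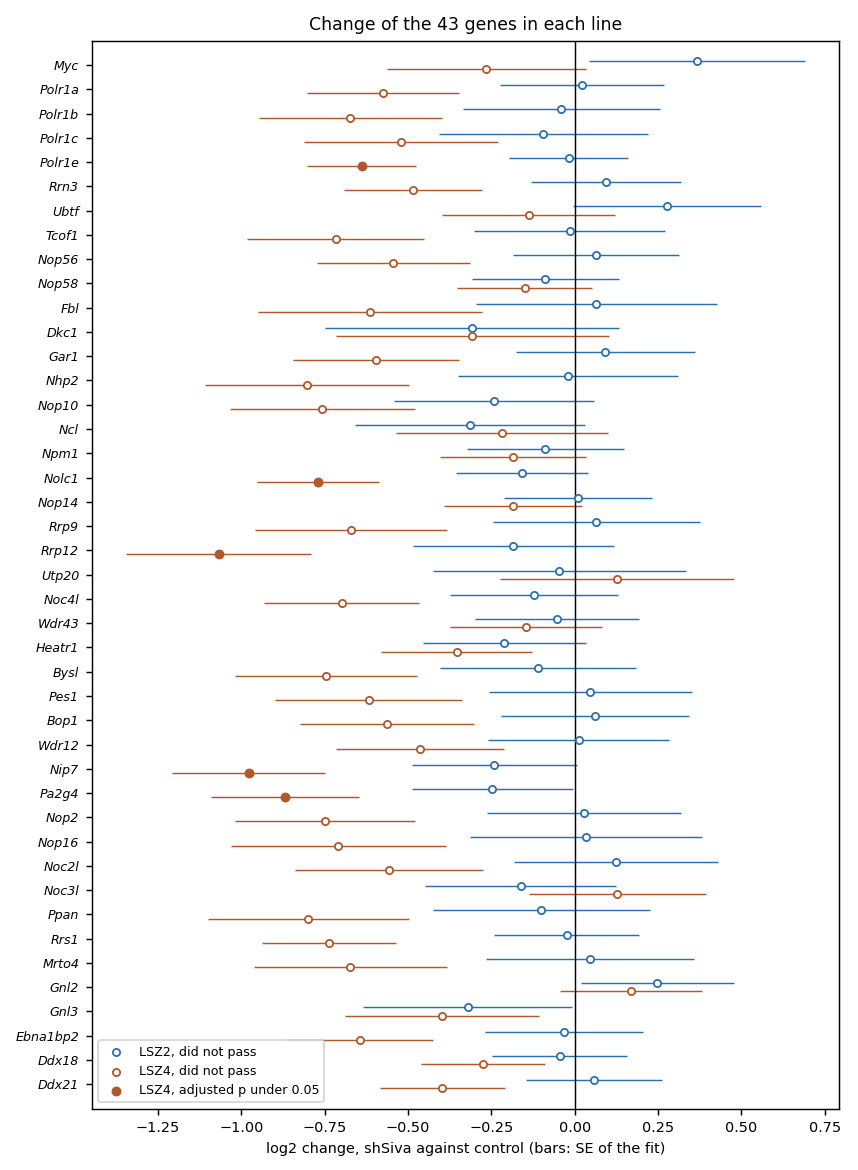
Points give the log2 change with shSiva against control for each of the 43 genes (x axis), in LSZ2 (blue) and LSZ4 (brown), with the SE of the fit as bars. Filled points passed at an adjusted p under 0.05: Nip7, Nolc1, Pa2g4, Polr1e and Rrp12, all in LSZ4. The LSZ2 points lie between -0.32 and 0.37.

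The difference between the lines was tested directly. None of the 43 genes passed in limma, nor did any of the 22908 genes (0%), and 5 of the 43 had an unadjusted p under 0.05 (2.27% of all genes). The median of the differences, LSZ4 less LSZ2, was -0.61 against -0.14 over all genes, and 39 of 43 were below 0 (62.9% of all genes). The smallest p-values were those of Polr1e, with a difference of -0.62 (SE 0.24), and Rrs1, with -0.71 (SE 0.30), both at an adjusted p of 0.899. For Nip7 it was -0.74, with a 95% interval from -1.46 to -0.01.

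The LSZ4 count depended on single arrays. The share of all genes called also changes when arrays are left out. It is not given beside counts with 1 array left out, here or elsewhere, so those counts describe only how stable the calls were. Without LSZ4 shLacZ 1 it was 24, without LSZ4 shSiva2 2 it was 6, and without LSZ4 shGFP 1 or 2, LSZ4 shLacZ 2 or LSZ4 shSiva1 1 it was 0. It was 1 without LSZ4 shSiva1 2 or LSZ4 shSiva2 1. It was 2 or 3 when an LSZ2 array was left out, which changes only the estimate of the spread and not the LSZ4 means. Without both LSZ4 shGFP arrays it was 0 (0.314% of all genes fell), with 42 of 43 changes below 0 and a median of -0.41.

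Replicate arrays of LSZ4 differed from each other, in these genes and in all genes. In the shLacZ pair the dimmer array read higher for 32 of 43 genes, in the shSiva1 pair for 31 and in the shSiva2 pair for 29. The median difference, dimmer less brighter, was 0.59 over the 43 and 0.50 over all genes with shLacZ, 0.58 and 0.35 with shSiva1, and 0.31 and 0.27 with shSiva2. The shGFP arrays, 425 and 455 in brightness and so the closest pair of LSZ4, went the other way, with 13 of 43 genes higher on the dimmer array and medians of -0.05 and -0.02. With shLacZ, Fbl read 4.25 on the brighter array and 5.20 on the dimmer, and with shSiva1 3.76 and 4.72. Ncl went the other way, at 7.27 and 6.14 with shLacZ and 6.46 and 5.76 with shSiva1. Across the 43 genes the dimmer-less-brighter differences of the shLacZ and shSiva1 pairs, which share no array, had r = 0.96, and 42 of 43 had the same sign. Over all genes the same differences had r = 0.73. The shares of all genes by sign were not counted. All 43 points come from the same 4 arrays, so r is a description.

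In the shLacZ, shSiva1 and shSiva2 pairs of LSZ4 alike, 28 genes were higher on the dimmer array, among them Myc, the 7 polymerase I genes, Fbl and Nip7. Another 10 were lower on the dimmer array in these 3 pairs (Nop58, Dkc1, Ncl, Nop14, Utp20, Wdr43, Heatr1, Noc3l, Gnl2 and Gnl3), and 5 were mixed. The shGFP arrays, the dimmest, read above the shLacZ arrays in LSZ4 for all 28 of the first class, by 0.15 to 0.96, and below them for all 10 of the second, by -1.51 to -0.52. The median change with shSiva in LSZ4 was -0.67 in the first class and -0.17 in the second, and the 5 genes that fell were all in the first. These classes were formed from values that also enter the LSZ4 change, so no test was made between them.

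**Figure D3:**
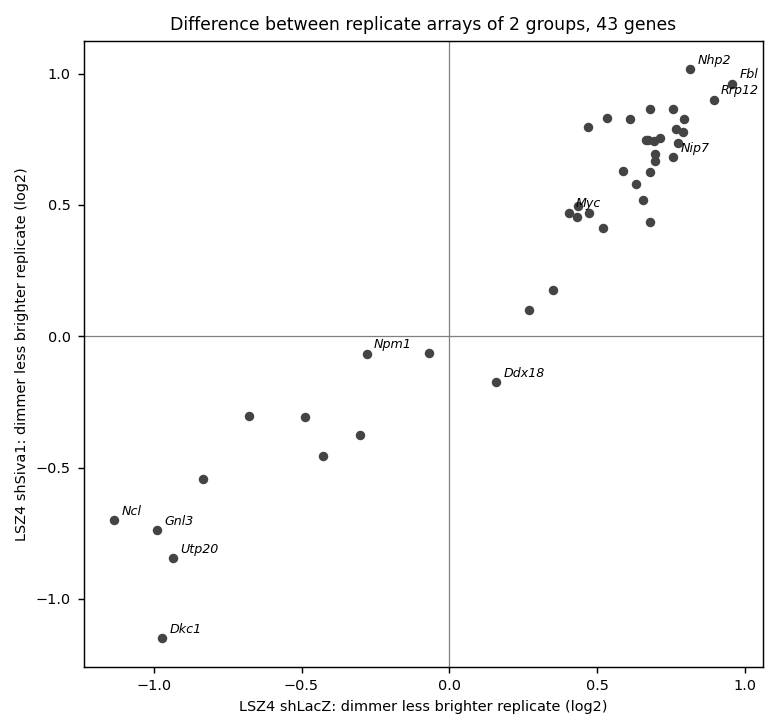
Each point is 1 of the 43 genes. The x axis gives the log2 difference between the dimmer and the brighter LSZ4 shLacZ array and the y axis the same for the LSZ4 shSiva1 arrays, a pair on the other slide. The points run along 1 line (r = 0.96), with Dkc1, Ncl, Gnl3 and Utp20 at the low end and Fbl and Nhp2 at the high end.

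With array brightness as a term in the fit, more genes were called. Over both lines 18 of the 43 fell and none rose, where 19.6% of all genes fell and 9.51% rose under that fit. In LSZ4 21 fell, where 11.3% of all genes did, and in LSZ2 none passed (5.09% of all genes fell). Nip7 then fell by 0.58 over both lines (SE 0.11, adjusted p = 0.00206), Pa2g4 by 0.53 (adjusted p = 0.00192) and Rrp12 by 0.58 (adjusted p = 0.00147), while Myc read 0.09 (adjusted p = 0.689). The median in LSZ4 was -0.44. With shSiva1 36 of the 43 fell (31.8% of all genes), with shSiva2 13 fell and 3 rose (23.4% and 14.8%), and against shLacZ 29 fell (26.2%). Between the Siva hairpins 17 were higher and 3 lower with shSiva2 (22.6% and 19.3%). Brightness and line were not balanced, since the LSZ4 arrays were 6 of the 6 dimmest.

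The Siva hairpins were also compared with each other, within 1 slide and 1 vector. Siva1 itself was at 13.1% of control with shSiva1 and 23.4% with shSiva2. That difference of 0.84 (SE 0.29, adjusted p = 0.0548 in limma) just missed the test, and its part in the values below was not tested. With shSiva2, Myc, Wdr12, Npm1 and Nop10 were higher than with shSiva1, and Pes1 was lower. Among all genes 9.97% were higher and 9.53% lower, so 4 and 1 of 43 are near the background. Of the 43 changes 39 were above 0 (61.9% of all genes), with a median of 0.34 against 0.14. In both lines, 16 of the 43 had every shSiva2 array above every shSiva1 array, where 21.6% of all genes did, and Pes1 alone had every one below, where 13.3% did.

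Myc was higher with shSiva2 by 0.86 (SE 0.22, adjusted p = 0.0114), a fold of 1.81. Against control it read -0.40 with shSiva1 (adjusted p = 0.142) and 0.45 with shSiva2 (adjusted p = 0.162), neither past the test. With brightness as a term Myc was higher with shSiva2 than in control by 0.41 (SE 0.11, adjusted p = 0.00948). Wdr12 read 3.54 and 3.62 with shSiva1 and 4.34 and 4.23 with shSiva2 in LSZ2, and 3.19 and 3.37 with shSiva1 and 4.26 and 4.03 with shSiva2 in LSZ4. The shSiva1 arrays were the lowest of each line, and shSiva2 was higher by 0.78 (SE 0.16, adjusted p = 0.00229). Npm1 read 7.60 and 7.15 with shSiva1 and 7.96 and 7.89 with shSiva2 in LSZ2, and 7.31 and 7.25 against 7.84 and 8.04 in LSZ4, a difference of 0.60 (SE 0.14, adjusted p = 0.00608). Nop10 read 4.28 and 4.51 with shSiva1 and 5.06 and 4.94 with shSiva2 in LSZ2, and 4.16 and 4.68 against 5.15 and 5.38 in LSZ4, a difference of 0.73 (SE 0.21, adjusted p = 0.0244). For Nop10 too the shSiva1 arrays were the lowest of each line, and for Npm1 1 LSZ2 shSiva1 array lay just above a shLacZ array.

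Pes1, the first named subunit of PeBoW, went the other way. It read 3.17 and 3.53 with shSiva1 and 2.63 and 2.59 with shSiva2 in LSZ2, and 3.47 and 3.94 with shSiva1 and 2.76 and 2.99 with shSiva2 in LSZ4. The shSiva2 arrays were the lowest of their line in both lines, below the control arrays too. By this probe Pes1 was lower with shSiva2 than with shSiva1 by -0.79 (SE 0.22, adjusted p = 0.0181). The other Pes1 probe read 0.54 (adjusted p = 0.186), and with the mean of both Pes1 no longer passed (-0.12, adjusted p = 0.76). Its partner Bop1 differed by 0.16. Myc, Npm1 and Wdr12 passed without any 1 array, while Nop10 and Pes1 each failed without 1 of 4 arrays. In 12 other settings of the processing, Myc and Wdr12 each failed in 1, Npm1 and Nop10 each in 2 and Pes1 in 3. The Npm1 difference was as low as 0.26 in these settings. The count of 5 was 8 without LSZ4 shLacZ 1.

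**Figure D4:**
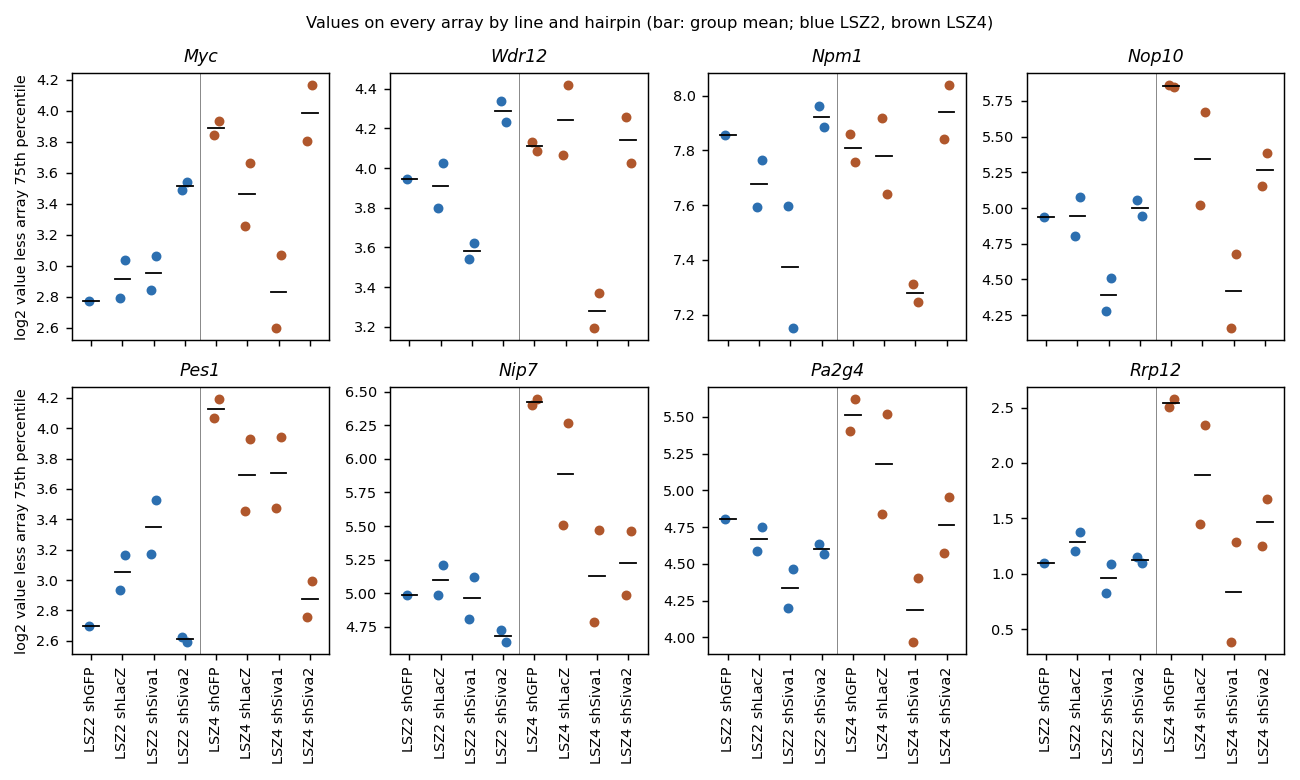
Each panel gives 1 gene, with a point per array (log2 value less the 75th percentile of the array, y axis, a scale of its own in each panel) and a bar at the mean of each line and hairpin. LSZ2 is blue and LSZ4 brown. Wdr12, Npm1 and Nop10 are low with shSiva1 in both lines and Pes1 with shSiva2, and Nip7, Pa2g4 and Rrp12 are highest with LSZ4 shGFP.

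Set against control, shSiva1 lowered 10 of the 43 genes (Ebna1bp2, Nolc1, Nop10, Nop16, Npm1, Pa2g4, Polr1b, Ppan, Rrp12 and Wdr12), where 15.4% of all genes fell, and raised none (10.3% of all genes). The largest of these falls was that of Nop10, by 0.88 (SE 0.19, adjusted p = 0.00324). The median of the 43 was -0.49 against -0.19 over all genes, and 41 were below 0 (65.4% of all genes). With shSiva2, Pes1 fell by 0.70 (SE 0.19, adjusted p = 0.026) and no other gene of the 43 passed, where 6.3% of all genes fell and 5.98% rose. With the mean of both its probes Pes1 read -0.41 (adjusted p = 0.248). The median was -0.11 against -0.05, and 33 were below 0 (56.1% of all genes). These comparisons share their control arrays. The shSiva1 count was 21 without LSZ4 shLacZ 1 and 5 without LSZ4 shSiva1 1. The shSiva2 count was 0 without LSZ4 shLacZ 2, LSZ4 shSiva2 1 or LSZ4 shSiva2 2, and 2 without LSZ4 shLacZ 1 or LSZ4 shSiva1 1. Without both LSZ4 shGFP arrays none fell with shSiva2, where 5.81% of all genes did, and Myc rose by 0.61 (adjusted p = 0.0429), where 6.85% did.

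The choice of control hairpin changed the count. Against shGFP, 6 of the 43 were lower with shSiva (Bysl, Nip7, Nolc1, Nop10, Pa2g4 and Rrp12), where 13.6% of all genes were, none was higher (7.14% of all genes), and Rrp12 differed by -0.88 (SE 0.28, adjusted p = 0.0394). Against shLacZ none passed in limma (the smallest p was that of Heatr1, -0.48, adjusted p = 0.0838), 6 had an unadjusted p under 0.05 (23.8% of all genes), and 11.2% of all genes were called. Without LSZ2 shGFP 1 the shGFP count was 28, without LSZ4 shSiva2 1 it was 2, and without LSZ4 shGFP 1 or 2 it was 0. The control hairpins compared with each other gave 0 of the 43 in limma, where 0.00437% of all genes were called, with 1 at an unadjusted p under 0.05 (10.3% of all genes). In LSZ4, 8 of the 43 lay below both shLacZ arrays on all 4 shSiva arrays (Ddx18, Ddx21, Heatr1, Nip7, Nolc1, Nop14, Polr1e and Wdr43), against 6.53% of all genes.

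Between the lines, Bop1, Fbl, Gar1, Nip7 and Nop16 were higher in LSZ4 and Dkc1, Nop58 and Wdr43 lower, over both arms. Among all genes 15.3% were higher and 7.15% lower. Nop16, a nucleolar protein of large subunit assembly, was higher by 0.83 (SE 0.25, adjusted p = 0.0341), and Dkc1 was lower by -0.85 (SE 0.29, adjusted p = 0.0482). The 3 that were lower belong to the genes that read low on dim LSZ4 arrays, and the 5 that were higher to those that read high. Those classes were formed from LSZ4 arrays that also enter this comparison. With brightness as a term none of the 43 passed, where 1.55% of all genes were higher and 2.61% lower. The 6 dimmest arrays were all of LSZ4, so line and brightness cannot be fully told apart here. The count of 8 was 32 without LSZ4 shSiva1 1, 22 without LSZ4 shLacZ 1 and between 1 and 12 without any 1 of the other arrays.

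Second probes gave a further reading of the hairpins for 16 of the 43 genes. In a fit over all 32188 tested probes, 10 of their 21 other probes were higher with shSiva2 than with shSiva1 and 0 were lower, where 9.8% of all probes were higher and 9.24% lower. Probes of the same gene, such as those of Npm1, were counted separately. The share is over all tested probes and not over second probes. The other Nolc1 probe was higher by 1.72 (SE 0.17, adjusted p = 5.63e-06), while the brightest Nolc1 probe read 0.34 (adjusted p = 0.227). The other Nip7 probe was higher by 1.30 (SE 0.24, adjusted p = 0.00121) against -0.09 for the brightest, and the other Ubtf probe by 1.56 (SE 0.27, adjusted p = 0.000798) against 0.30.

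The Nip7 probes lie on the plus strand of chromosome 8 in mm9, an earlier build than that of the promoter windows, the brightest at 109582751 to 109582810 and the other at 109584765 to 109584824, and their mean log2 values were 5.32 and 0.52. The other Nip7 probe read -0.04 with shSiva1 and 0.92 with shSiva2 in LSZ2, and -0.16 and 1.47 in LSZ4, as group means of 2 arrays. Among the 4 Npm1 probes the difference between hairpins ran from 0.51 to 0.73, and each passed. The Pes1 probes disagreed in sign in this comparison. In the same fit over probes Pa2g4 just missed the pooled test (adjusted p = 0.0518) and Nip7 passed (adjusted p = 0.045), where 5.12% of all probes fell. Which transcripts the paired probes share was not tested.

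**Figure D5:**
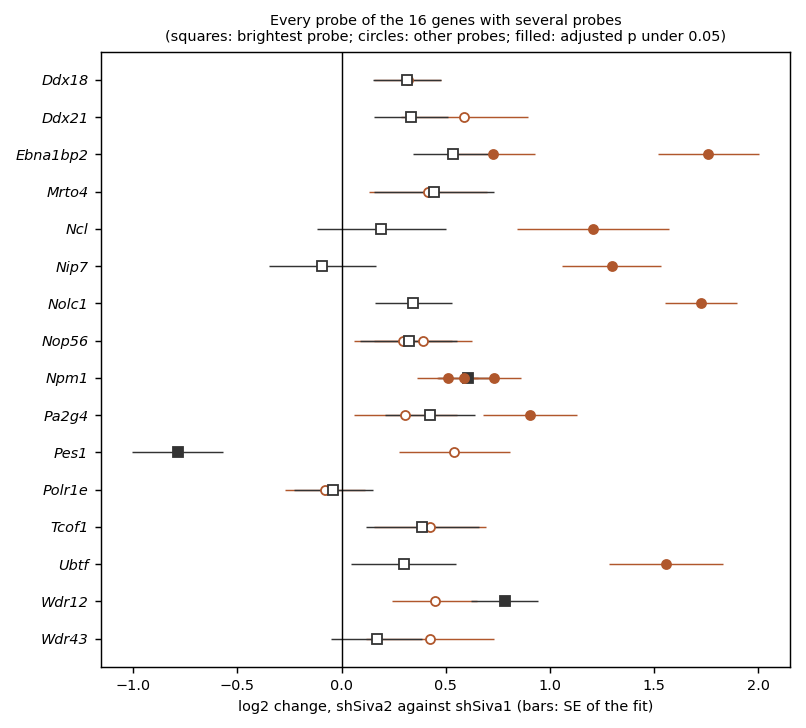
Every probe of the 16 genes with several probes is shown by its log2 difference, shSiva2 against shSiva1 (x axis), with the SE of the fit as bars. Squares are the brightest probe of a gene and circles the others, and filled symbols passed at an adjusted p under 0.05. Other probes of Ebna1bp2, Nolc1, Ubtf and Nip7 lie at 1.30 or more, to the right of the brightest probe, and the Pes1 probes fall on either side of 0.

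Other genes of the pathway were read from lists chosen with earlier results in view. Of 105 ribosome biogenesis genes outside the 43, 7 fell and none rose over both lines (5.67% of all genes fell), with 94 of 105 below 0 (64.1% of all genes) and a median of -0.23 against -0.11. Pinx1, a nucleolar inhibitor of telomerase, fell by 0.67 (SE 0.13, adjusted p = 0.00409) and the RNA helicase gene Ddx51 by 0.62 (SE 0.16, adjusted p = 0.0187). In LSZ4 8 of them fell, Pinx1 by 0.86 (SE 0.17, adjusted p = 0.00976), where 2.13% of all genes fell, and the median was -0.44 against -0.18. With shSiva2 against shSiva1, 10 were higher and 2 lower, where 9.97% of all genes were higher and 9.53% lower, with Urb1 at 1.16 (SE 0.20, adjusted p = 0.000685) and Las1l, needed to process the second internal spacer, at -0.87 (SE 0.15, adjusted p = 0.000769).

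In the Myc network, Mxd1, a Max partner that opposes Myc, fell by 0.63 (SE 0.17, adjusted p = 0.0283) and Mlxip, a glucose-responsive relative, by 0.59 (SE 0.17, adjusted p = 0.0432), 2 of the 12 genes tested, where 5.67% of all genes fell. Mlxip read -0.21 with shSiva1 (adjusted p = 0.205) and -0.96 with shSiva2 (adjusted p = 8.92e-05). Mxd1 read -0.79 with shSiva1 (adjusted p = 0.007) and -0.46 with shSiva2 (adjusted p = 0.146). Of 41 other genes known as Myc targets none passed over both lines, and with shSiva2 against shSiva1 5 were higher and 1 lower, where 9.97% and 9.53% of all genes were. Ccnd2 (cyclin D2) was higher by 3.13 (SE 0.24, adjusted p = 3.48e-07) and Tert, the telomerase catalytic subunit, was lower by -1.30 (SE 0.16, adjusted p = 2.52e-05). Of 48 ribosomal protein genes none passed over both lines, with 48 of 48 below 0 (64.1% of all genes) and a median of -0.13 against -0.11. The sign depended on line, hairpin and control. Below 0 were 9 of 48 in LSZ2 (54.8% of all genes) and 48 in LSZ4 (64.9%). With shSiva1 there were 48 (65.4%) and with shSiva2 4 (56.1%), against shGFP 47 (64.6%) and against shLacZ 14 (56.7%). Of the p53 surveillance genes of the nucleolus 5 of 6 were tested and none passed over both lines.

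Proliferation markers were read beside these genes. The summed level of Mki67, Top2a, Mcm2, Pcna, Ccnb1 and Aurka lay between 7.84 and 8.13 on control arrays and between 7.50 and 7.68 on shSiva arrays. The sums did not overlap, and no share over all genes was computed for such a sum. Each marker alone overlapped between the arms over both lines. Pcna, for example, ran from 6.33 to 6.93 on control arrays and from 6.04 to 6.62 on shSiva arrays. Aurka, a mitotic kinase, fell by 0.79 (adjusted p = 0.0212), and the other 5 did not pass over both lines. Their part in the values above was not tested.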

How the data were processed

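RNA of LSZ2 and LSZ4 cells was hybridised to 15 Agilent mouse arrays of 1 colour. Per the file headers, Feature Extraction 10.7.3.1 gave the deposited intensity of each spot, background-subtracted and detrended, with probe positions on mm9. The authors' value table held log2 intensities less a 75th percentile, which were also median-centred probe by probe. After the same centring, scaling by a percentile over probe means matched 99.8% of these values within 0.01. Here log2 intensities less the array's 75th percentile over spots were used. Probes well above background on at least 4 arrays, with at most 3 missing, were kept (32188), and the brightest probe stood for a gene. limma 3.58.1 (lmFit and eBayes, in R 4.3.3) was fitted over all 22908 genes, with Benjamini-Hochberg adjustment and a threshold of 0.05. Intervals are 95%. The number of arrays limits the precision, and no spot was saturated.

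Comparisons were between arms over both lines and within each, between lines, and between hairpins. Members with values on every array were Myc, Nip7, Pa2g4, those passing in a pooled or within-line test, and the 2 with the smallest p where none passed. Genes that the Siva hairpins separated were added after their values were seen. The members and lists were chosen with earlier results of these data known. The fit has no replicate block, since the labels do not say that a number marks a shared source. Both LSZ4 shGFP arrays were treated as the same hairpin, on which the labels are silent. Alternatives covered scaling, background correction, the filter, the choice of probe, blocks, array brightness and each array left out. Scripts were tested on simulated data. Promoters are RefSeq, matched by symbol.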

Additional observations from a re-analysis of the deposited data

Results flagged for a closer look

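Of 39 groups of 4 arrays tested for a lone array far from the rest, 3 were set off, where chance alone sets off about 1 in 20. Nolc1 read 5.75 on LSZ4 shLacZ replicate 1, the lowest of the 4 LSZ4 control arrays, with the next at 6.18 and the highest at 6.25. Rrs1 read 3.59 on the same array, with the next at 4.16 and the highest at 4.17. Rrs1 read 3.21 on LSZ2 shSiva1 replicate 1, the lowest of the 4 LSZ2 shSiva arrays, with the next at 3.40 and the highest at 3.42.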

How the results depend on the processing

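Counts are of the 43 genes called, higher or lower, in the order pooled, LSZ4, shSiva1, shSiva2, shSiva2 against shSiva1, shGFP, shLacZ and LSZ4 against LSZ2, and were 2, 5, 10, 1, 5, 6, 0 and 8 as reported. The share of all genes called changes with the setting too and is not given here for each setting. With array brightness as a term 19.6% of all genes fell in the pooled comparison, against 5.67% as reported. The counts below therefore describe only how stable the calls were. Quantile scaling gave 4, 7, 13, 4, 7, 7, 5 and 5. Median scaling gave 1 in the pooled comparison, as did the authors' value table. Normexp gave 1 (pooled), 16 (shSiva1), 0 (shSiva2) and 2 (lines). Without a filter on dim probes the pooled, LSZ4 and shSiva2 counts were 0 and the shGFP count 3. With probes on all arrays only, the lines gave 13. The mean of all probes gave 0 (pooled), 2 (LSZ4), 0 (shSiva2) and 3 (shGFP). Same-numbered arrays deviated together over 14 of 21 pairs of groups (correlation over 0.1, range -0.21 to 0.73, median 0.23) and over 6 of 6 pairs within LSZ4 (0.17 to 0.73). Across lines, LSZ2 shSiva1 had 0.66 with LSZ4 shLacZ and 0.69 with LSZ4 shSiva1, while LSZ2 shSiva2 had -0.20 and -0.21. Replicate 2 was the dimmer array of LSZ2 shSiva1, LSZ4 shLacZ and LSZ4 shSiva1, and replicate 1 that of LSZ2 shSiva2. Whether the number marks a shared source or follows brightness was not tested. The replicate block gave 4 (pooled), 16 (shSiva1), 2 (shSiva2), 8 (between Siva hairpins), 27 (shGFP), 3 (shLacZ) and 13 (lines). The random block gave 0 (pooled, LSZ4, shSiva2 and lines) and 5 (shSiva1). The 8 group means gave 1 for shSiva1 and 0 elsewhere. Array brightness as a term gave 18, 21, 36, 16, 20, 7, 29 and 0. Without both LSZ4 shGFP arrays, an alternative chosen after seeing the data, the pooled, LSZ4, shGFP and line counts were 0 and the Siva hairpins gave 9. Every setting kept 0 in LSZ2, in the difference between lines and in shGFP against shLacZ. Without any 1 array the counts ran from 0 to 4 (pooled), 0 to 24 (LSZ4), 5 to 21 (shSiva1), 0 to 2 (shSiva2), 4 to 8 (between Siva hairpins), 0 to 28 (shGFP), 0 to 0 (shLacZ) and 1 to 32 (lines). The members' median less that of all genes stayed between -0.37 and -0.12 in the pooled comparison and between -0.72 and -0.24 in LSZ4. The cause of these shifts was not tested.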
